A study of Mus musculus with 8 samples.

Results

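The small leucine-rich proteoglycans (SLRPs) are secreted matrix proteins built around a chain of leucine-rich repeats. This account covers 9 of their genes, taken by name: Ogn, Dcn, Bgn, Lum, Fmod, Prelp, Omd, Aspn and Podn. A gene was included where its symbol stood in the first column of the deposited table. Of the 9 genes, 6 had a row among the 12589 genes of the table, namely Bgn, Dcn, Prelp, Fmod, Ogn and Podn. No row was found for Lum, Omd and Aspn, so these 3 were not analysed here beyond their gene structure.

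The RNA came from a YFP-expressing line of stromal cells from mouse spleen, mSSC-YFP, 1 cell line grown in medium with fetal bovine serum. The labels list 4 samples exposed for 48 h to BMS493, an inhibitor of retinoic acid receptor signaling, and 4 samples exposed to its vehicle, DMSO. The value used here is the mean that the authors took, for each gene, of log2 normalized expression across every sample of both treatments. Because that mean pools treated and vehicle cultures, neither an effect of BMS493 nor a spread between cultures can be given, and no test was run. The table does not give the depth of the single libraries either.

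SLRP cores bind fibrillar collagen and set the thickness and spacing of fibrils. Several members also hold growth factors such as TGF-beta in the matrix, and biglycan and decorin released from it can act on receptors of immune cells. In the spleen, stromal cells lay down a meshwork of collagen fibres along which lymphocytes move. The family is divided into classes by sequence and gene structure. Bgn (biglycan), Dcn (decorin) and Aspn (asporin) are class I genes. Class II holds Lum (lumican), Fmod (fibromodulin), Prelp and Omd (osteomodulin). Ogn (osteoglycin) is a class III gene and Podn (podocan) a class V gene.

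Cell identity was checked first. All 8 of 8 fibroblast and stromal markers had a row (Pdgfra, Pdgfrb, Col1a1, Col1a2, Thy1, Vim, Pdpn and Vcam1). Their mean log2 expression ran from 5.24 for Pdgfra to 13.29 for Col1a1. None of 6 leukocyte and B cell markers did (Ptprc, Cd79a, Cd79b, Ms4a1, Cd3e and Itgam). Of 4 endothelial markers, Kdr had a mean log2 expression of 2.83 and Pecam1 of 0.47, and Cdh5 and Tek had no row. Of 4 epithelial markers, Krt8 stood at 1.55 and Krt18 at 0.31, Epcam had no row, and Cdh1, the gene for E-cadherin, stood at 8.03. Cdh1 was thus far above the other epithelial markers. It also stood above the stromal markers Pdgfra, Pdgfrb (6.45), Pdpn (7.02) and Thy1 (7.72). Vcam1 was level with Cdh1 at 8.03, and Col1a1, Col1a2 and Vim were higher. Whether Cdh1 bears on the proteoglycan levels was not tested.

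Biglycan and decorin, both of class I, dominated the group. Bgn had a mean log2 expression of 11.24, with 16 of the 12589 genes above it. Dcn had 8.71, with 322 genes above it. Both carry chondroitin or dermatan sulfate chains on their core protein. Prelp, which encodes a protein with a basic end that binds heparin and heparan sulfate, stood at 5.75, or percentile 65.4 of all genes. Fmod, whose product carries keratan sulfate and binds collagen I, stood at 4.13, at percentile 35.4. Ogn, a small keratan sulfate proteoglycan of cornea and bone also known as mimecan, stood at 2.72, at percentile 18.9. Podn, first known from the kidney podocyte, stood at 0.63, at percentile 4.37. The 6 genes thus spread over most of the range of the table, whose lowest gene had -0.58, whose median gene had 4.99 and whose highest gene had 13.29.

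**Figure D1:**
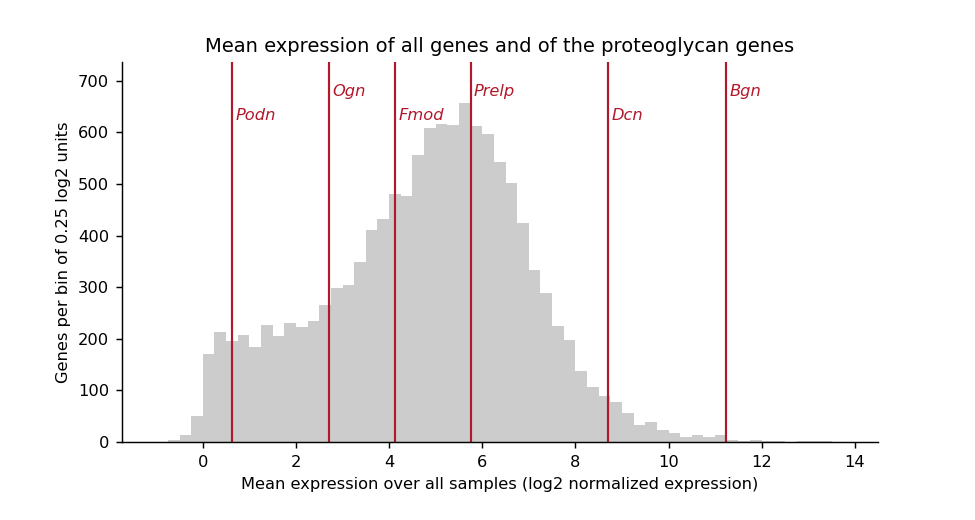
Histogram of the mean log2 normalized expression over all samples for 12589 genes (x axis, bins of 0.25 log2 units; y axis, genes per bin), with a red line for each of the 6 proteoglycan genes that had a row. Bgn at 11.24 and Dcn at 8.71 lie in the right tail, Prelp at 5.75 lies near the peak, and Podn at 0.63 lies near the left end.

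Taken out of the log scale and summed, the 6 genes made up 0.295% of the summed level of all genes, that sum being 2 raised to each gene's mean. Within the 6 genes, Bgn alone accounted for 82.9% and Dcn for 14.3% of the sum. Prelp gave 1.84%, Fmod 0.599%, Ogn 0.225% and Podn 0.0530%. Most of the signal of these genes in the stromal cultures came from biglycan, with decorin next. These shares count fragments and not molecules, because longer transcripts yield more fragments.

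Levels were next divided by length, since genes of different length can be compared only per base. The length was that of the longest protein-coding transcript in GENCODE M21. Per kb, the log2 level was 9.97 for Bgn, 7.90 for Dcn, 3.90 for Prelp, 2.49 for Fmod, 1.36 for Ogn and -1.03 for Podn. The median over the 11476 genes with such a length was 3.43, so that 3 of the 6 proteoglycan genes lay above it and 3 below. Bgn was at percentile 99.8 of these genes and Dcn at percentile 98.5. Prelp was at percentile 59.7, Fmod at 32.3, Ogn at 17.9 and Podn at 3.04. Bgn and Dcn lay above the upper quartile of all genes, 4.68, and Ogn and Podn below the lower quartile, 2.02.

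The steps between neighbours in this order were unequal. Per kb of the longest transcript, Bgn was 4.20 times the level of Dcn. Dcn was 16.0 times that of Prelp, the widest step with this length. Prelp was 2.66 times Fmod, Fmod was 2.19 times Ogn, and Ogn was 5.25 times Podn. From Bgn to Podn the level fell 2051-fold with this length. Podn, at 0.63 before division, lay near the lowest gene of the table at -0.58. The pooled mean gives no error for these ratios, and whether neighbours differ beyond the spread between cultures cannot be said. The place of all 6 genes in the order was the same when the level was not divided by length and when it was divided by the coding length or by the merged length of all annotated exons. The width of the steps was not the same. With merged exons, Dcn at 6.16 and Prelp at 3.90 lay closer than Ogn at 1.36 and Podn at -1.46. With the coding length, Dcn at 8.62 and Prelp at 5.56 lay slightly closer than Ogn at 2.87 and Podn at -0.25. Without division, the step from Dcn to Prelp was the widest. With the shortest protein-coding transcript as the length, 2 of the 6 genes, Ogn and Podn, held their place. Dcn at 10.69 then stood above Bgn at 10.59, and Fmod at 5.04 above Prelp at 3.90. That setting uses fragments such as a Dcn transcript of 254 bases against 1758 bases for the longest.

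**Figure D2:**
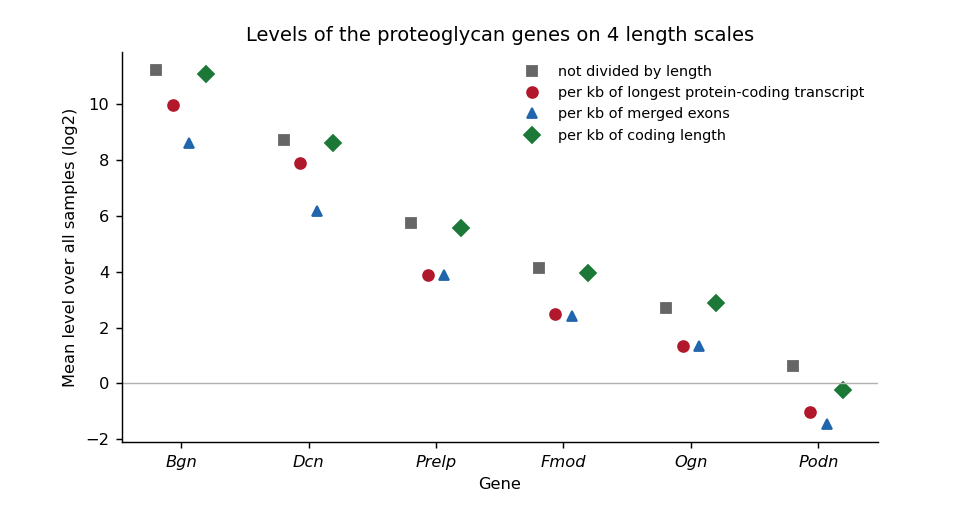
Mean log2 level over all samples (y axis) of the 6 proteoglycan genes (x axis) without division by length (grey squares), per kb of the longest protein-coding transcript (red circles), per kb of merged exons (blue triangles) and per kb of coding length (green diamonds). On all 4 scales the order runs from Bgn to Podn, and the triangles for Bgn, 8.63, and Dcn, 6.16, lie furthest below the circles.

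Among the 6 measured genes, the order of levels also followed the classes. The class I genes Bgn and Dcn were the highest, the class II genes Prelp and Fmod came next, and Ogn of class III and Podn of class V were the lowest. With 1 or 2 measured genes in a class, this is a description of these 6 genes. Outside the 6, Podnl1, the closest relative of Podn, stood at 2.44 per kb, above Ogn at 1.36. Tsku of the same family, at 4.16, stood above Prelp at 3.90 per kb. Without division by length it stood below Prelp, at 5.62 against 5.75. The third class I gene, Aspn, had no row, nor did Lum and Omd of class II.

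The classes are also visible in the structure of the genes. In the longest coding transcript, Bgn, Dcn and Aspn each had 8 exons, of which 7 were coding, and the largest coding exon held 21.7%, 20.1% and 22.5% of the coding length. The class II genes had 2 coding exons each, and 1 large exon held most of the protein. It covered 979 of 1131 coding bases in Fmod (86.6%), 961 of 1137 in Prelp (84.5%), 862 of 1017 in Lum (84.8%) and 940 of 1272 in Omd (73.9%). Ogn, the shortest of the 9 with 897 coding bases, had 6 coding exons. Podn, the longest with 1836 coding bases, had 9 coding exons.

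**Figure D3:**
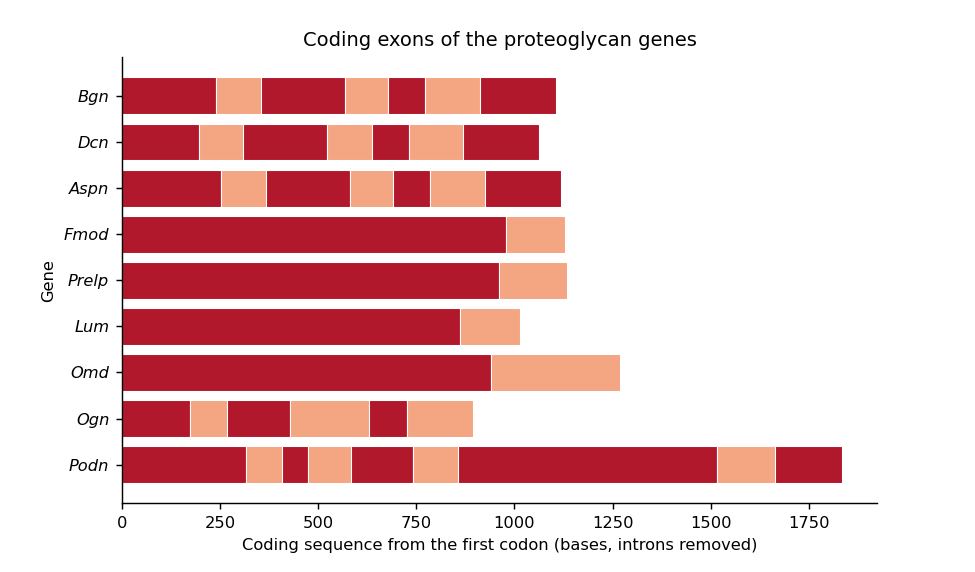
Coding exons of the 9 proteoglycan genes (y axis) laid end to end without introns, in bases from the first codon (x axis), with alternating colours marking exon borders. The 4 class II genes (Fmod, Prelp, Lum and Omd) have 2 coding exons each, and the 3 class I genes (Bgn, Dcn and Aspn) have 7 each.

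Most of these genes sit in 3 clusters of the mouse genome. Positions are from GENCODE M21 on GRCm38, the build also named mm10 that the labels give for the data. Prelp (chromosome 1, 133910304 to 133921414, minus strand) lies 116 kb from Fmod (chromosome 1, 134037254 to 134048277, plus strand). The opticin gene Optc of the same family lies 2304 bases beyond Prelp. All 3 genes of this cluster had a row, and per kb they stood at 3.90 for Prelp, 2.49 for Fmod and 0.45 for Optc.

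In the cluster on chromosome 10, Dcn (97479609 to 97518143) is followed on the same strand by Lum, Kera and Epyc. The span is 203 kb and no other protein-coding gene lies wholly within it. Dcn was the only gene of these 4 with a row. Its neighbour Lum starts 47.0 kb from the end of Dcn. In the cluster on chromosome 13, Ecm2, Aspn, Omd and Ogn (49608046 to 49624501) lie in this order within 120 kb, and Ogn was the only gene of these 4 with a row. In both clusters, then, 1 of 4 family genes had a measured level, the first by position on chromosome 10 and the last on chromosome 13. Bgn (chromosome X, 73483602 to 73495933) and Podn (chromosome 4, 108014791 to 108096445) stand alone, with no other gene of the list within 500 kb.

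**Figure D4:**
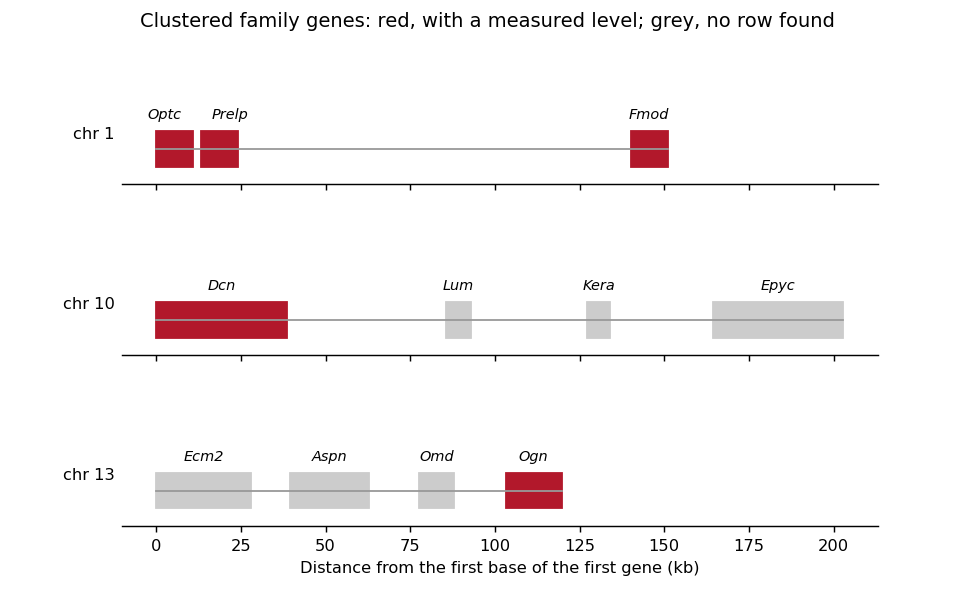
Position of SLRP family genes in their 3 clusters on chromosomes 1, 10 and 13, as the distance in kb from the first base of the first gene (x axis). Red boxes mark genes with a row in the table and grey boxes genes for which none was found: 3 of 3 on chromosome 1, 1 of 4 on chromosome 10 and 1 of 4 on chromosome 13 are red.

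Overlapping genes could add or remove reads. The span of Ogn overlaps Cenpp on the opposite strand, but their exons share 0 bases. Podn overlaps Scp2 on its own strand, also with 0 shared exon bases. In Prelp, 350 exon bases (9.68% of its merged exons) are shared with the antisense gene Gm15851, for which no row was found. The libraries were made with a stranded kit, but whether strand was used in counting is not given in the sources used here. The effect of the shared bases on the level of Prelp is therefore unknown and was not tested.

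The promoters of the genes differed in base composition. RefSeq promoter entries on GRCm38.p6, running from 250 bases before to 50 after the start, were found for 5 of the 6 measured genes, and none for Dcn. Podn has 2 entries, with a GC content of 77.0% and 63.0%. The GC content was 63.7% for Bgn, 55.3% for Prelp, 51.0% for Fmod and 42.3% for Ogn, against a median of 52.7% over 32851 promoters. Omd and Aspn, neighbours of Ogn without a row, had 37.7% and 31.0%. The promoters of all 3 of these chromosome 13 genes were thus below the median, the lowest being that of Aspn at percentile 1.35.

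Short motifs were searched on both strands. The GC box letters GGGCGG, found in 35.7% of all promoters, occurred 3 times in the promoter of Bgn and 2 times in 1 of the Podn entries. The TATA letters TATAAA, found in 13.6% of all promoters, occurred in Ogn and Aspn. The half-site AGGTCA to which retinoic acid receptors can bind, found in 16.3% of all promoters, occurred once each in Podn and Omd. Matches in Ogn overlap on the 2 strands. The direct repeat of this half-site with 5 bases between its copies was found in 3 of the 32851 promoters, and in no promoter of the 9 genes that had an entry. A match to such short letters is no sign of binding, and its absence from 300-base windows says nothing of other sites. The stretches that follow show such matches for 3 measured genes, 3 in Bgn, 2 in Ogn and 1 in Podn, 5′ to 3′ on the strand of the gene, with the matching letters in capitals (in Bgn and Podn the reverse complement of the motif, in Ogn the TATAAA letters of both strands run together).
Bgn, GRCm38.p6 chrX:73483541-73483600, plus strand, the 60 bases before the start: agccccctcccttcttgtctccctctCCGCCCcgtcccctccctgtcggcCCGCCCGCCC
Ogn, GRCm38.p6 chr13:49607765-49607824, plus strand, from 250 to 191 bases before the start: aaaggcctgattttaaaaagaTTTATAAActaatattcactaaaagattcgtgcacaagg
Podn, GRCm38.p6 chr4:108031087-108031146, minus strand, from 160 to 101 bases before the start: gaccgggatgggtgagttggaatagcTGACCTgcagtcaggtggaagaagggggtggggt
In Bgn, the gene with the highest level of the group, all 3 GC boxes fall within the last 34 bases before the start, and the last 2 overlap.

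The remaining genes of the family were mostly absent from the table. Of 10 further genes listed as family members or close relatives, 4 had a row. Tsku, the gene for tsukushi, stood at 4.16 per kb on the log2 scale, above Prelp at 3.90, but below Prelp without division by length. Podnl1, the closest relative of Podn, stood at 2.44, 11.1 times the level of Podn per kb. Lrrc17, a leucine-rich repeat gene counted here as a relative, stood at 0.51, and Optc was the lowest of the 4 at 0.45. Kera, Epyc, Ecm2, Chad, Nyx and Chadl had no row. Bgn and Dcn lay above each of these 4 genes.

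Collagens, to which the SLRP cores bind, had the highest median of the related lists. Of 15 genes on the list, Lox for the crosslinking enzyme included, 14 had a row, with a median log2 level per kb of 7.24 against 3.43 over all genes and 3.19 over the 6 proteoglycan genes. Of the 14, only Col1a1, with 10.72 per kb, and Col1a2, with 10.05, exceeded Bgn at 9.97. The level of Col1a1 was 1.68 times that of Bgn, and Col1a2 was 1.06 times that of Bgn. Dcn had 5 of the 14 genes above it and Podn had all 14. Col11a2, with -0.74, was the lowest of the list.

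Among other proteoglycans, the heparan sulfate carriers and large aggregating forms, 14 of 22 genes had a row. None reached Dcn per kb of the longest transcript. Without division by length, Hspg2 at 10.77 stood above Dcn at 8.71. Dcn stood at 6.16 per kb of merged exons, a length not tried for this list. Per kb of the longest transcript, the highest was Hspg2 (perlecan) at 6.94, followed by the syndecan Sdc4 at 6.71, and Cspg4 was the lowest at -0.61. Bgn was 8.16 times Hspg2 per kb. The median of the list was 3.96.

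Chondroitin and dermatan sulfate chains are built on the class I cores by a series of linker, polymerizing and sulfating enzymes. Of 24 such genes, 19 had a row, and 11 of the 19 lay above the median of all genes per kb. Chst12, a sulfotransferase, was the highest at 5.87, Ugdh, which makes the precursor UDP-glucuronic acid, followed at 5.72, and Csgalnact1 was the lowest at -1.27. For keratan sulfate, the chain of the Fmod and Ogn products, 9 of 12 enzyme genes had a row, with a median of 3.57. The sialyltransferase gene St3gal2 at 4.88 and the galactosyltransferase gene B4galt1 at 4.82 led this list, and B3gnt2 was the lowest at -1.36. Both tyrosine sulfotransferases, which modify tyrosines at the end of fibromodulin and related cores, were present, with Tpst2 at 5.38 and Tpst1 at 4.74. Each of these enzymes lay below Dcn.

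Proteases that cut SLRPs or trim their propeptides were listed together with Pcolce and Pcolce2, genes for procollagen C-proteinase enhancers. Of the 15 genes on this list, 12 had a row, with a median of 4.77 per kb. The enhancer gene Pcolce at 8.40 and the membrane protease gene Mmp14 at 7.98 exceeded Dcn at 7.90, and Pcolce2 was the lowest at 0.88. Bmp1, which removes the propeptide of biglycan, stood at 6.31 and was named here after its value was seen.

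Of 26 symbols for growth factors and receptors that SLRPs bind, older and current names of Wisp1 and Ctgf among them, 23 had a row. Their median was 3.36, close to that of all genes. Itgb1, the beta 1 integrin gene, was the highest at 8.48, followed by Ctgf at 7.91, and Itga2 was the lowest at -2.44. Receptors of soluble biglycan lay on both sides of the median of all genes, with P2rx4 at 4.07, Cd14 at 2.62, P2rx7 at 2.52, Tlr4 at 2.42 and Tlr2 at -0.38. So did receptors described for decorin, with Lrp1 at 7.31, Met at 4.61, Egfr at 4.48, Igf1r at 3.24 and Kdr at 0.27. These receptors were named after their values were seen.

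**Figure D5:**
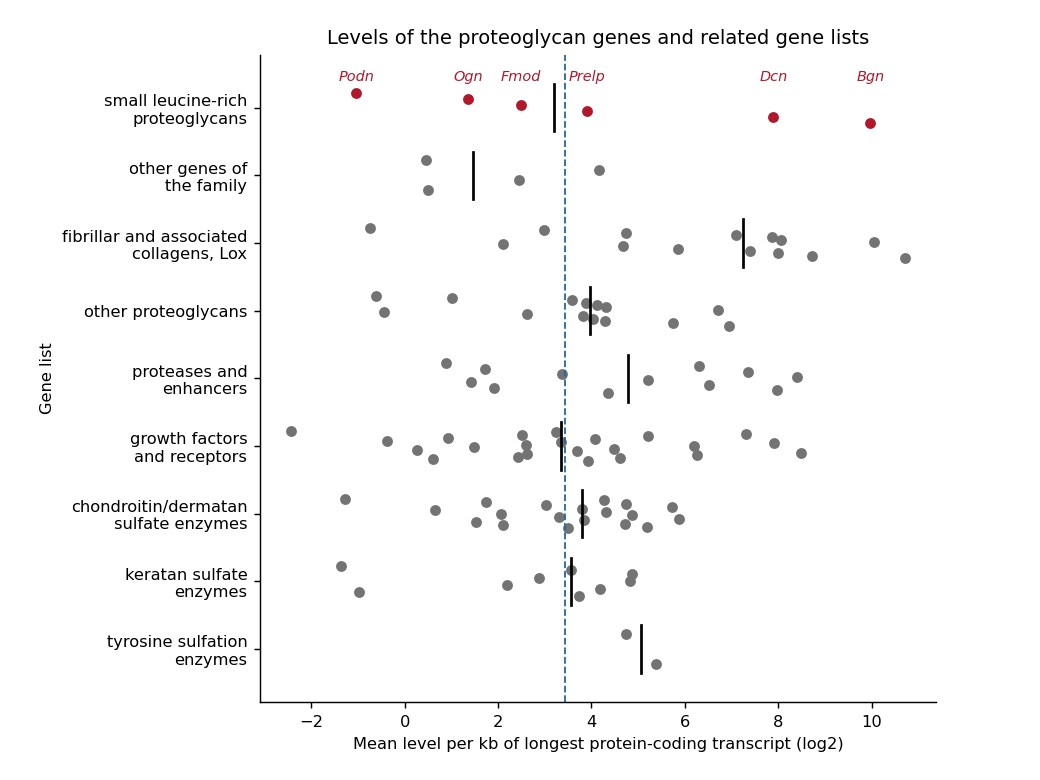
Mean log2 level per kb of the longest protein-coding transcript (x axis) of each gene with a row (points) in the 6 proteoglycan genes, in red, and in 8 related lists, in grey (y axis). Black bars are list medians and the dashed line is the median of all genes, 3.43; of the grey points, Col1a1 and Col1a2 alone lie to the right of Bgn.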

How the data were processed

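According to the labels and the study's methods, stranded mRNA libraries were aligned to mm10 (GRCm38) with STAR 2.3.0e, and uniquely mapped reads were counted on Ensembl genes with Rsubread and scaled by trimmed means of M-values. The extraction protocol in the labels describes amplification for arrays and qPCR instead. The table the authors deposited holds, for 12589 genes, the mean log2 normalized expression over all samples and 4 columns of their own comparison of BMS493 with DMSO (log2 fold change, t, p and adjusted p). Those 4 columns were not used, so no treatment effect is given, and 0 columns hold single samples. Whether a count was added before taking logs is not given in the sources used here.

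Decimal commas were converted. Symbols were matched to GENCODE M21, 11765 directly and 603 through 1 older symbol (RefSeq, GRCm38.p6). The level per kb is the log2 mean minus log2 of the length in kb of the longest protein-coding transcript, available for 11476 genes. A percentile is the percent of genes below. Named genes are the members, the family genes with a row, and the 2 highest and the lowest per kb of each other list. Bmp1 and some receptors were added after their values were seen. The members and lists were chosen with earlier results of these data known. One listed marker gene is not reported here. Functions were tested on simulated data. Python 3.11.15 and pandas 2.3.3 were used.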

Additional observations from a re-analysis of the deposited data

How the results depend on the processing

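The order of the 6 genes by level per kb of the longest protein-coding transcript was recomputed with other lengths. All 6 genes kept their place with the coding length, with no division by length and with the merged length of all exons, the last chosen after seeing the data. With the shortest protein-coding transcript 2 of 6 did. Single levels moved by up to 2.79 log2 units with that length, by 0.72 to 1.67 with the coding length and by at most 1.73 downward with merged exons. The width of the steps between the genes therefore changed with the length. The related lists were not recomputed with other lengths. Percentiles stayed on the same side of the median per kb for 6 of 6 genes. They also did so for 5 of 5 among the 11733 genes whose mean reached 1 on the log2 scale. Among the 9866 whose mean reached 3, they did so for 4 of 4, though Fmod moved from percentile 35.4 to 17.5. Leaving out low genes can only lower a percentile, so with a minimum mean only Bgn, Dcn and Prelp could have changed side. Prelp moved from percentile 65.4 to 55.8 among the genes whose mean reached 3. No paired analysis was possible because only a mean over all 8 samples was used. For the same reason the planned fits leaving out each replicate, with other filters, pseudocounts or tools were not run. The table gives no depth per library, and its effect on the levels was not tested.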
